A study of Drosophila melanogaster with 47 samples.

Results

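Of the 6511 merged binding regions in this series, 333 held a peak of Cmi together with 1 to 3 other regulators and no peak of Su(H). They were chosen by merging the peaks of all 16 deposited lists on the main chromosome arms wherever they overlapped by at least 1 bp, counting regulators per region, and keeping regions of 2 to 4 regulators with Cmi and without Su(H). The 2 prd lists were counted as 1 regulator and so were the 2 Hr78 lists, which made 14 regulators. The presence or absence of a peak in every list therefore set these members, and all shares of partners below are descriptions without a test. The 333 regions were 20.9% of the 1592 regions that held Cmi. Of the other regions with Cmi, 779 held Cmi alone, 260 held Su(H) as well within 2 to 4 regulators, 69 held 5 or more regulators without Su(H), and 151 held 5 or more with Su(H).

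Cmi (Cara Mitad) is a subunit of the Trr complex, a COMPASS-like histone methyltransferase that acts as a coactivator of nuclear receptors, the ecdysone receptor among them, and is known for its work at enhancers. Coactivators of this kind reach enhancers with DNA-binding factors. Su(H) is the DNA-binding factor of the Notch pathway: the cleaved intracellular domain of the Notch receptor joins it to activate targets, and without that domain Su(H) can act in repression.

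Binding was measured by chromatin immunoprecipitation and sequencing (ChIP-seq) in Drosophila melanogaster, with 35 immunoprecipitated and 12 input samples. Each list covered 2 replicates, or 3 for Su(H), insv and h. No value per replicate was held in the lists, so replicates could not be compared, and intervals are exact Clopper-Pearson 95% intervals of counting error only. Cmi was precipitated with the antibody KW1-cmi from embryos of 0 to 8 h whose source is labelled Exd-GFP, a name that points to another protein, and nothing in the labels explains this. The labelled antibody and factor are those of Cmi, and they are used here. br came from embryos of the same 0 to 8 h window, and was the only other list of that window. Both prd lists, made with the antibodies RF12 and RF13, came from embryos of 0 to 12 h, as did Stat92E, and embryonic Hr78 came from 8 to 16 h. Notch, larval Hr78, AbdB and Lola came from the larval stage labelled W3L. cnc came from adult females. h, insv, dm and Su(H) came from the cell line Kc167, for which the labels name 1 input sample, and CG8478 from the cell line S2. Notch, both Hr78 lists, AbdB, Lola (labelled LolaI-GFP) and Stat92E were precipitated with an antibody to green fluorescent protein (GFP) from animals whose source is labelled with the tagged protein. A shared region thus joins peaks of different stages and materials, and does not show that the proteins were on DNA in the same cells.

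The rule allowed 1 to 3 partners. Cmi had 1 partner in 194 (58.3%, interval 52.8 to 63.6), 2 partners in 82 (24.6%) and 3 in 57 (17.1%). Of the regions of 2 to 4 regulators, 58.6% of those with neither Cmi nor Su(H) and 51.7% of those with Su(H) and no Cmi also held 2 regulators. The regions had a median width of 656 bp (quartiles 427 and 917), against 329 bp for Cmi alone and 761 bp for Cmi with Su(H) in 2 to 4 regulators. They held 351 Cmi peaks, with 1 Cmi peak in 315 regions and 2 in 18. In 324 of the 333 a Cmi peak overlapped every partner list, and in the other 9 at least 1 list was joined to Cmi only through a peak of another list.

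**Figure D1:**
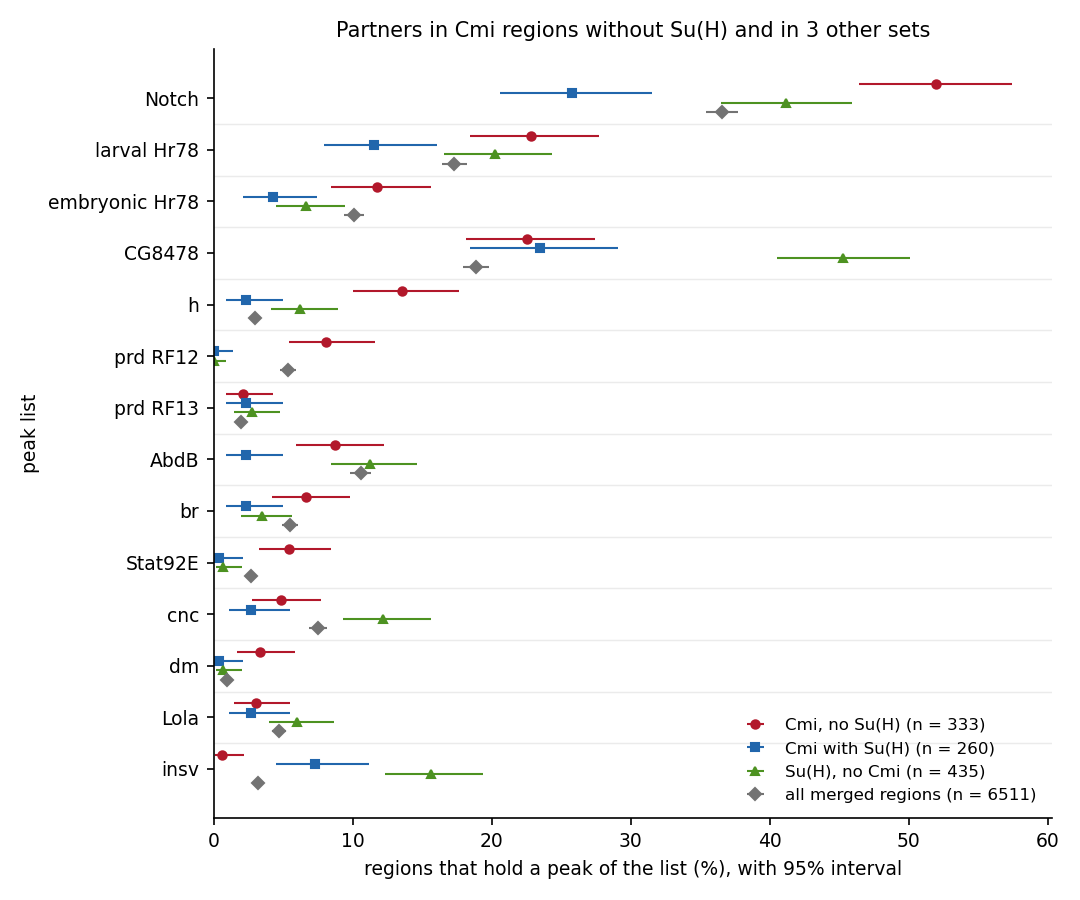
Share of regions (x axis, percent) that held a peak of each list (y axis) in the 333 Cmi regions without Su(H), the 260 regions with both, the 435 regions with Su(H) and no Cmi, all of 2 to 4 regulators, and all 6511 merged regions; bars are exact 95% intervals of counting error. Notch stood highest at 52.0% in the Cmi regions without Su(H), and h stood at 13.5% there against 2.95% of all regions.

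The receptor Notch, measured here as a protein labelled Notch-GFP in larvae, was the most frequent partner. Notch peaks lay in 173 of the 333 regions (52.0%, interval 46.4 to 57.4), and 36.6% of all merged regions held Notch. Most regions with several partners held Notch: it was present in 62 of 194 regions with 1 partner (32.0%), in 57 of 82 with 2 (69.5%) and in 54 of 57 with 3 (94.7%). Regions with neither Cmi nor Su(H) held Notch in 82.2% of 550 with 2 regulators and 95.5% of 264 with 3, so larger shares at more regulators were also seen without Cmi. The rule fixes how many partners a region has, so sets were also laid side by side at an equal number of partners beside Cmi and Su(H). With 1 such partner, that partner was Notch in 32.0% of the Cmi regions without Su(H), 24.7% of 89 regions with Cmi and Su(H), 16.0% of 225 with Su(H) and no Cmi, and 32.4% of 2525 with neither, where Notch was the only regulator. The share of Notch as the sole partner was thus close to its share among regions of a single regulator without Cmi and Su(H). The score of a peak is the authors' −log10 p, which ranks peaks within 1 list, and a percentile of 100 stands for the top. The Notch peaks in the 333 regions ranked at a median percentile of 45.9 within the Notch list, against 50.6 over all regions with Notch and 68.0 in regions of 2 to 4 regulators with neither Cmi nor Su(H). With a common threshold of −log10 p of 10 for all lists, which only 457 of 1680 Cmi peaks and no Su(H) peak passed, 132 regions met the rule and Notch was present in 78.0% of them and in 67.6% of all 1863 regions left. With only the top-scoring 50% of each list these shares were 44.4% and 33.7%.

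Hr78, an orphan nuclear receptor, was the second most frequent partner as a regulator, in 94 regions (28.2%, interval 23.5 to 33.4; 20.1% of all merged regions). The larval list was present in 76 regions (22.8%; 17.3% of all) and the embryonic list in 39 (11.7%; 10.1% of all). In regions of 2 to 4 regulators with neither Cmi nor Su(H), 66.3% of 938 held Hr78. At 1, 2 and 3 partners beside Cmi, Hr78 was present in 9.79%, 32.9% and 84.2% of the members. Regions with neither Cmi nor Su(H) and 1, 2 and 3 regulators held it in 6.18%, 51.3% and 83.7%. Only the larval list was present in 55 of the 94, only the embryonic list in 18, and both in 21. The share of Hr78 regions with both lists was 22.3% here (interval 14.4 to 32.1) and 36.1% over all 1309 Hr78 regions. It was the sole partner in 19 of 94 regions, and 68 of the 94 also held Notch (72.3%), as did 1047 of all 1309 of all Hr78 regions. Within their own lists these Hr78 peaks ranked below the middle, at a median percentile of 42.2 for the larval list and 40.2 for the embryonic one, where all regions of these lists had medians of 52.4 and 52.2.

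The Hox protein AbdB, which patterns the posterior body, was present in 29 regions (8.71%; 10.6% of all merged regions) and was the sole partner in 2. Notch was present in 25 of the 29 (86.2%) and Hr78 in 16 (55.2%). Over all 688 AbdB regions these shares were 91.3% and 67.2%, so the shares in the members were no higher than in the list as a whole. Lola, a BTB zinc-finger protein, was present in 10 regions (3.00%; 4.67% of all), 7 of which held Notch, as did 165 of all 304 Lola regions. Among the 57 regions with 3 partners, 47 held both Notch and Hr78, with CG8478 as the remaining partner in 19 and AbdB in 15. All partners were lists made with the GFP antibody in 156 of the 333 regions (46.8%), and no partner was such a list in 114 (34.2%). Regions with at least 1 partner of this antibody made up 65.8% of the 333, 44.3% of all merged regions and 93.1% of the regions of 2 to 4 regulators with neither Cmi nor Su(H). How far the shared antibody contributed to these combinations was not tested.

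CG8478, known by its annotation number, was measured in S2 cells and was present in 75 regions (22.5%, interval 18.1 to 27.4; 18.9% of all merged regions). In regions with Su(H) and no Cmi the share was 45.3%. Where there was 1 partner beside Cmi and Su(H), it was CG8478 in 14.9% of the Cmi regions without Su(H), 27% of those with both and 39.1% of those with Su(H) and no Cmi. With 2 partners the shares were 25.6%, 55.2% and 47.5%, and with 3 they were 43.9%, 66.1% and 58.0%. With neither Cmi nor Su(H) the shares were 18.1%, 14.2% and 22.3% at 1, 2 and 3. The members thus lay below both sets with Su(H) at each number, and at 2 and 3 above the regions with neither. insv, a BEN-domain protein known as a corepressor that acts with Su(H), was present in 2 of 333 regions (0.601%, interval 0.0728 to 2.15; 3.16% of all) and in 19 of 260 regions with Cmi and Su(H) (7.31%). Of the 206 insv regions in the series, 2 were members, and both lay on X. The Cmi peaks of these 2 regions ranked low in the Cmi list, at percentiles of 3.75 and 8.10.

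**Figure D2:**
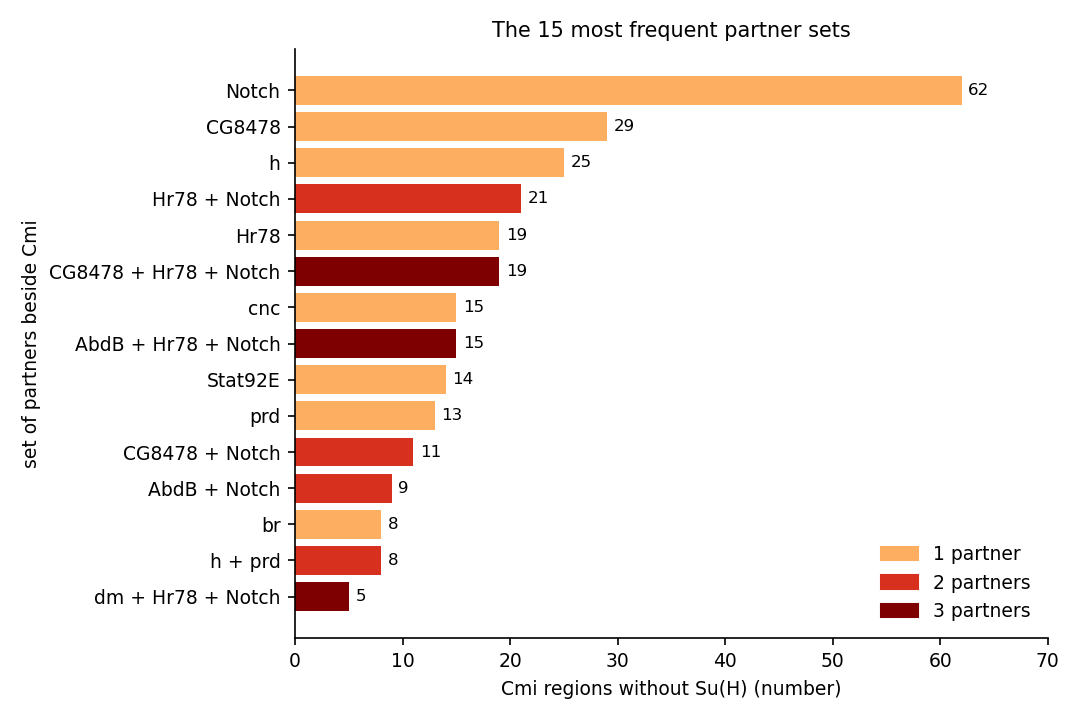
Number of Cmi regions without Su(H) (x axis) with each of the 15 most frequent sets of partners (y axis), coloured by the number of partners. Notch alone led with 62 regions, CG8478 alone had 29 and h alone had 25.

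Altogether 48 different partner sets occurred, 18 of them once. Notch alone was the most frequent set with 62 regions, followed by CG8478 alone with 29 and h alone with 25. The share of regions in which a partner was the only one varied between the lists. The partners most often alone were cnc, a basic leucine zipper protein known in the oxidative stress response, and Stat92E, the transcription factor of the JAK-STAT pathway. cnc was present in 16 regions (4.8%; 7.48% of all merged regions) and was the sole partner in 15 of them (93.8%, interval 69.8 to 99.8), and Notch was present in 0 of these 16, a count that allows a share of up to 18.8%. Over all 487 cnc regions, Notch was present in 57 (11.7%). With only the top-scoring 50% of each list the cnc share was 1.6% (6.80% of all), and with the common threshold of 10 it was 0% (3.596% of all). Stat92E was present in 18 regions (5.41%; 2.66% of all) and was the sole partner in 14. Of the 260 regions with Cmi and Su(H), 1 held Stat92E. AbdB was least often the sole partner, followed by Hr78. Over all merged regions of each list cnc was also most often alone, and AbdB and Hr78 least often. Stat92E was not second there. The only regulator of a region was cnc in 328 of 487 cnc regions, br in 214 of 357, prd in 283 of 473 and dm in 31 of 61. It was CG8478 in 458 of 1228, Notch in 817 of 2380, Lola in 94 of 304 and Stat92E in 45 of 173. Lower shares were those of h with 38 of 192, insv with 33 of 206, Hr78 with 156 of 1309 and AbdB with 28 of 688.

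dm, the fly Myc protein, had a short list. It was present in 11 regions (3.30%; 0.937% of all merged regions), which were 18.0% of its 61 regions. Of the 11, 6 held Hr78 and 7 held Notch, and 5 had the partner set of dm, Hr78 and Notch. All 6 with Hr78 held the embryonic list and 0 held the larval one. Over all 61 dm regions, 18 held Hr78 and 19 held Notch. The embryonic Hr78 list was present in all of these 18 and the larval list in 5. On X lay 6 of the 11 (54.5%, interval 23.4 to 83.3), where 20.1% of the 333 regions and 20.9% of all merged regions lay. br, a BTB zinc-finger protein induced by ecdysone, shared the embryonic window of Cmi. It was present in 22 regions (6.61%, interval 4.19 to 9.83; 5.48% of all) and was the sole partner in 8. With the common threshold of 10 its share was 1.52% (0.698% of all). Its share in the lists as deposited was near that over all regions. By origin, at least 1 partner came from larvae in 197 of the 333 regions (59.2%; 42.2% of all merged regions), from a cell line in 129 (38.7%; 23.9%) and from embryos in 107 (32.1%; 22.3%). Cmi and Su(H) were not counted as partners in any of these shares, although Su(H) lay in 27.9% and Cmi in 24.5% of all merged regions. Regions without partners count in the shares of all regions. Among regions of 2 to 4 regulators with neither Cmi nor Su(H) the shares were 92.1%, 24.8% and 46.9%.

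Relative to its share of all regions, the partner that stood highest in the members was h (hairy), a basic helix-loop-helix repressor known as a pair-rule gene and measured here in Kc167 cells. h was present in 45 of the 333 regions (13.5%, interval 10.03 to 17.7), and 2.95% of all merged regions held it. The h list had 192 merged regions, of which 70 held Cmi and 45 were members. At 1 partner beside Cmi and Su(H), that partner was h in 25 of 194 Cmi regions without Su(H) (12.9%), in 1 of 89 with both, in 9 of 225 with Su(H) and no Cmi (4.0%), and in 38 of 2525 with neither (1.5%). h and Su(H) were measured in the same cell line, whereas Cmi was measured in embryos. In these 45 regions Notch was present in 6 and Hr78 in 1, and over all 192 h regions Notch was present in 68 and Hr78 in 46. The limit of 4 regulators and the absence of Su(H) restrict the companions that a member can have.

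Among the partners, h had the highest median percentile of the Cmi peak beside it. The best Cmi peak of a region ranked at a median percentile of 92.6 of the Cmi list in the 45 regions with h (quartiles 77.1 and 98.1) and of 54.1 in the 288 members without h. Over all 333 regions the median was 61.3 (quartiles 31.5 and 84.0), over Cmi alone 43.3 and over Cmi with Su(H) in 2 to 4 regulators 58.1. In terms of the authors' fold enrichment, a linear ratio, the median Cmi fold was 4.32 with h and 3.33 without it. The h peaks were themselves at the upper end of the h list, with a median percentile of 82.3 in members and 50.6 over all h regions. Among other regions of 2 to 4 regulators it was 55.0 in 43 with neither Cmi nor Su(H). It was 40.7 in those with Su(H) and no Cmi, and 14.8 in 6 with Cmi and Su(H). In 5 regions with Cmi, no Su(H) and 5 or more regulators it was 57.9. The values of the h list were low: its highest −log10 p was 9.52, so that a common threshold of 10 for all lists left no h peak, and the h folds in the 45 regions lay between 2.02 and 3.74. The 5 regions with Cmi and h that held 5 or more regulators without Su(H) also had strong Cmi peaks, at a median percentile of 95.9, and in the 20 regions with Cmi, h and Su(H) the median was 73.2.

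**Figure D3:**
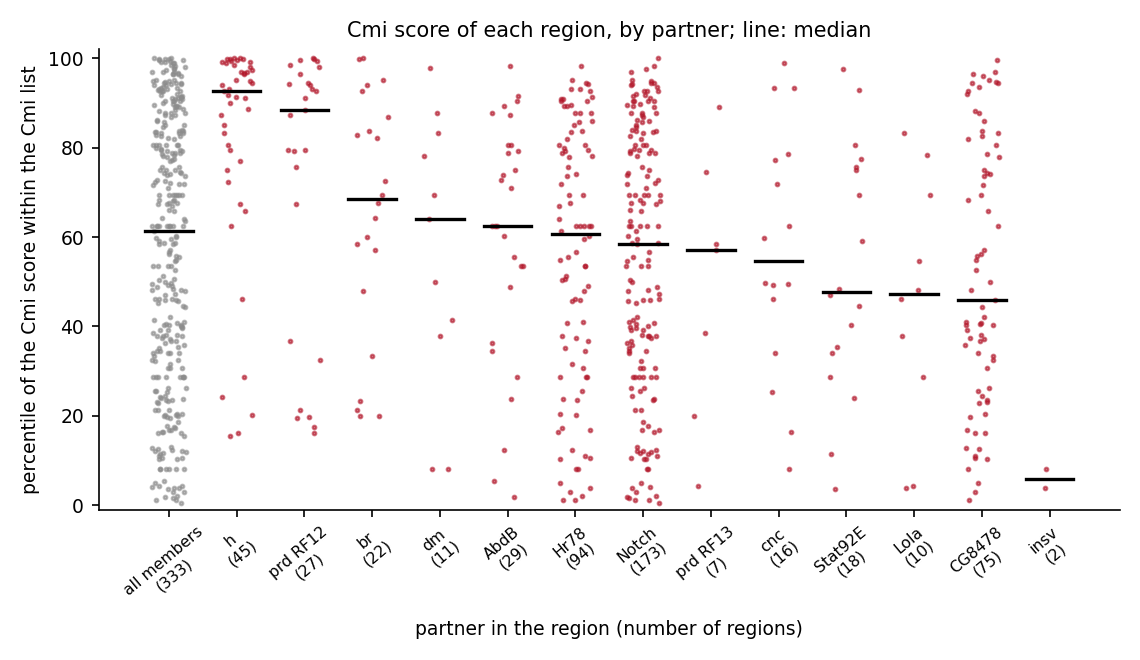
Percentile of the best Cmi peak's score within the Cmi list (y axis) for each of the 333 regions and for the regions with each partner (x axis, number of regions in parentheses); lines are medians. The medians were 92.6 with h and 88.3 with prd RF12 (52.1 without the regions that also held h), against 61.3 for all 333, and the points of nearly every partner span most of the range.

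Counted from the Cmi side, the share of Cmi regions with h was largest at the top of the Cmi ranking. When the 1592 Cmi regions were ranked by Cmi score and cut into 5 groups of 318 or 319, h was present in 6, 5, 2, 15 and 42 regions from the lowest to the highest. The members made up 17.6%, 19.8%, 14.7%, 21.7% and 30.7% of these groups, while the share of Cmi alone went from 61.0% in the lowest to 29.8% in the highest. Most other lists also had larger shares in the highest group than in the lowest: Notch had 18.9% in the lowest and 40.8% in the highest, CG8478 12.3% and 30.7%, Hr78 12.9% and 31.3%, AbdB 6.92% and 17.9%, and Su(H) 18.9% and 32.9%. Those of h were 1.89% and 13.2%, while cnc had 2.201% and 2.19% and Stat92E 2.83% and 1.88%. Among the 10 members at or above percentile 99, 9 held h, 4 held prd RF12 and 1 held Notch. At or above percentile 90, 26 of 61 members held h, 22 held Notch and 13 held prd RF12. The number of partners made a smaller difference: the median percentile was 58.5 with 1 partner, 65.6 with 2 and 62.5 with 3.

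The other pair-rule protein in the series was prd (paired), which has a paired domain and a homeodomain. prd was present in 34 regions (10.2%, interval 7.18 to 14.0; 7.26% of all merged regions), 27 with the RF12 list (8.11%; 5.31% of all) and 7 with the RF13 list (2.10%; 1.97% of all). In regions of 2 to 4 regulators with neither Cmi nor Su(H), 10.6% held prd, 8.85% RF12 and 1.71% RF13. None of the 27 members with RF12 held an RF13 peak. Over all merged regions, 346 held RF12 and 128 held RF13, and only 1 held both. The 2 antibodies against prd thus rarely shared a region anywhere in the series. The RF12 list shared no region with Su(H) at this size: 0 of the 260 regions with Cmi and Su(H) and 0 of the 435 with Su(H) and no Cmi held it, counts that allow shares of up to 1.15% and 0.690%. RF13 was present in 6 and 12 of them. The Cmi peaks of the 27 RF12 members had a median percentile of 88.3, and 13 of the 27 also held h. In the 14 without h the median was 52.1, below the 54.1 of all members without h, so the high median rested on those with h. The Cmi peaks in these regions were narrow, with a median of 269 bp against 438 bp in all members.

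The regions with h and prd RF12 were singled out after their values had been seen. The series had 13 of them, and all 13 held Cmi, had no Su(H) and were members (100%, interval 75.3 to 100). By comparison, Cmi was present in 57 of 179 h regions without prd (31.8%, interval 25.1 to 39.2) and in 23 of 333 RF12 regions without h (6.91%, interval 4.43 to 10.2). With the other antibody against prd there was no such overlap. Over the whole series, 192 regions held h, 128 held RF13 and 0 held both. The pairing with h was thus seen with the RF12 list only. The 13 lay on every main arm, with 2 on 2L, 2 on 2R, 3 on 3L, 4 on 3R, 1 on 4 and 1 on X. Of the 13, 8 held no further partner and 5 did. Their Cmi peaks ranked at a median percentile of 94.4 (range 79.6 to 99.9), their h peaks at 90.4 (range 14.8 to 99) and their RF12 peaks at 72.1 (range 9.91 to 98.9). In the 32 members with h and without RF12 the median Cmi percentile was 89.3. The summits of Cmi, h and RF12 spanned a median of 50 bp, and at most 245 bp. One example is the region on 4 at 445260 to 445659 (build dm3, 1-based, here and throughout), where the h summit lay 42 bp and the RF12 summit 2 bp from the Cmi summit, with an RF12 fold of 4.71, a Cmi fold of 6.67 and an h fold of 2.76. In the region on 3R at 3172214 to 3172482 the 3 summits lay within 18 bp.

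**Figure D4:**
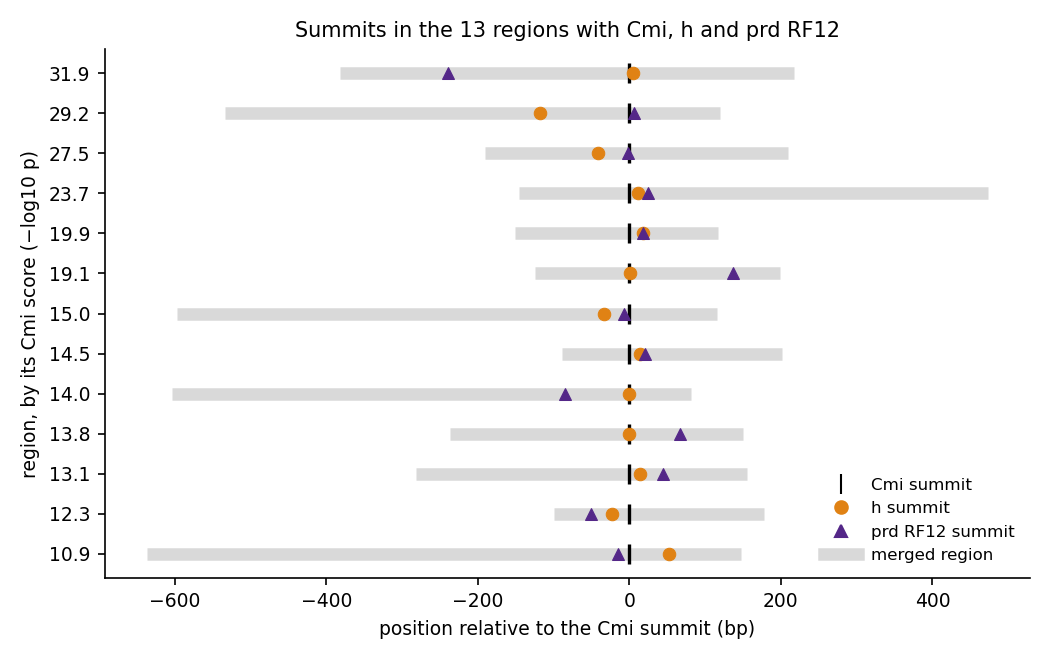
Position of the h and prd RF12 summits relative to the Cmi summit (x axis, bp) in the 13 regions with all 3 lists, ordered by Cmi score (y axis, −log10 p); grey bars are the merged regions. The 3 summits lay within 50 bp of each other in 7 regions, and in the region with a Cmi score of 31.9 the RF12 summit lay 240 bp away.

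Summits of h and prd RF12 had the shortest median distances to the Cmi summit. The summit is the position in a peak with the highest signal, as deposited. Over all 550 pairs of Cmi with a partner list, the median distance was 91.5 bp (quartiles 20 and 205), and 88.0% of the partner summits lay inside the Cmi peak. For h the median was 18 bp (quartiles 6 and 52), and 33 of 45 h summits lay within 50 bp of the Cmi summit. For prd RF12 the median was 19 bp, and 21 of 27 lay within 50 bp. Next came dm at 57 bp, larval Hr78 at 82 bp, Notch at 85 bp and Stat92E at 95.5 bp. CG8478 followed at 103 bp, embryonic Hr78 at 111 bp, AbdB at 126 bp and cnc at 139 bp. Lola and br lay farther off, at 146.5 bp and 206.5 bp. The antibody RF13 against the same protein as RF12 gave 251 bp in 7 regions. Peak widths varied beside these distances. The median partner peak in these regions was 246 bp wide for h, 228 bp for RF12, 232 bp for RF13 and 142 bp for Lola, and the median Cmi peak was 400 bp in members with h, 269 bp with RF12, 502 bp with RF13 and 420 bp with Lola. The part of peak width in the distances was not tested.

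**Figure D5:**
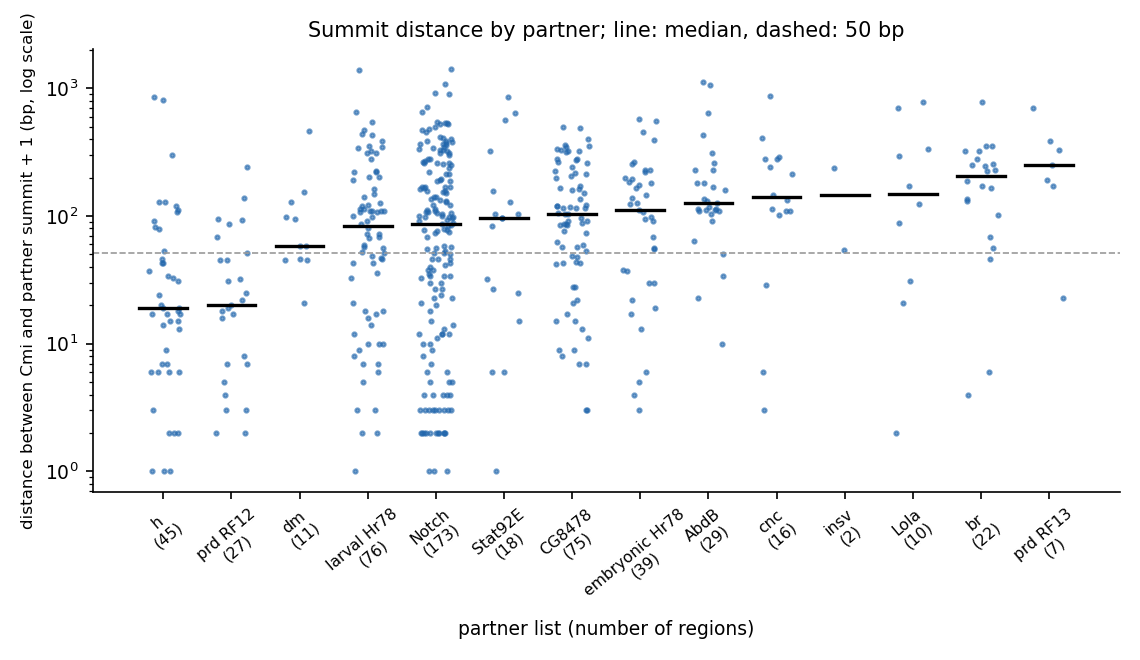
Distance from the Cmi summit to the nearest summit of each partner list (y axis, bp plus 1, log scale) in the Cmi regions without Su(H) (x axis, number of regions in parentheses); lines are medians and the dashed line marks 50 bp. The medians for h and prd RF12 were 18 and 19 bp, and Notch spread from 0 to 1408 bp.

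Notch distances ran from 0 to 1408 bp. Of its 173 summits 72 lay within 50 bp of the Cmi summit, and the quartiles were 12 and 238 bp. Where Notch was the sole partner the median distance was 51 bp, with 31 of 62 within 50 bp. For h as sole partner it was 30 bp over 25 regions, and for RF12 17 bp over 9 regions. Where Hr78 was the sole partner, the larval list lay a median of 41.5 bp away over 14 regions, and dm as sole partner 45 bp over 3. The remaining lists with 3 or more such regions had medians of 85 bp or more. In the regions with Cmi and Su(H) of 2 to 4 regulators the Cmi and Su(H) summits lay a median of 108.5 bp apart, and h, in 6 such regions, lay 123.5 bp from Cmi. In regions with Cmi and 5 or more regulators, h lay a median of 81 bp away in 19 regions. There RF12 (36 bp), embryonic Hr78 (55 bp), dm (58 bp) and Stat92E (75 bp) lay nearer than h, and the other lists lay farther off.

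The members with the highest Cmi scores were named by a rule on the score alone. The top 10 are the same 10 members at or above percentile 99 as given above, of which 9 held h. The first was the region on 3R at 7094796 to 7095081, with h and br, a Cmi score of 32.9, the highest of the whole Cmi list, and a Cmi fold of 7.14. Its h summit lay 8 bp and its br summit 5 bp from the Cmi summit, with an h fold of 2.37 and a br fold of 2.80. The second, on 3R at 12624214 to 12624813, held h, Notch and prd RF12 with a Cmi score of 31.9; the h summit lay 5 bp, the Notch summit 2 bp and the RF12 summit 240 bp from that of Cmi. The third, on 3R at 25541594 to 25543515, again held h and br, over 1922 bp, with a Cmi score of 31.4 and the h summit 817 bp away. The fourth, on 2R at 15884638 to 15885614, held h alone beside Cmi, with a Cmi score of 30.8 and both summits at the same base. The fifth, on 2R at 16771644 to 16772298, the sixth, on 4 at 445260 to 445659, and the eighth, on 3L at 17981271 to 17981890, held h and RF12, with Cmi scores of 29.2, 27.5 and 23.7. The ninth, on 3R at 6241350 to 6242380, and the tenth, on 4 at 424971 to 425654, held h alone, with scores of 22.7 and 21.6. The exception was the seventh, on 2R at 17593319 to 17593941, where the sole partner was CG8478, with a Cmi score of 25.3 and the summits 103 bp apart.

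Among partners not yet shown at their strongest Cmi peak, the member with AbdB and the one with Hr78 were the same, on 2R at 13688545 to 13690262, with AbdB, larval Hr78 and Notch, 2 Cmi peaks and a best Cmi score of 19.2. For cnc it was the region on X at 16861271 to 16862038 with a Cmi score of 20.7 and the cnc summit 277 bp away. For dm it was the region on 3R at 11244776 to 11246688 with a score of 18.9 and a distance of 45 bp. For Stat92E it was the region on X at 7229803 to 7231413, which also held Notch, with a score of 18.3; the Notch summit lay 9 bp and the Stat92E summit 635 bp from that of Cmi. For Lola it was the region on 3R at 12062680 to 12063652 with CG8478 and Notch and a score of 11.5, and for insv the region on X at 1935320 to 1935724 with Notch and a score of 6.65. Of the members with 3 partners, the top 5 by Cmi score include the regions just given with h, Notch and prd RF12 and with AbdB, Hr78 and Notch. The next lay on 2R at 14689758 to 14690595, held CG8478, Hr78 and Notch, and had a score of 15.7. It was followed by the region of 3R from 6490265 to 6490978 with CG8478, h and prd RF12 and a score of 15.02. The last of the 5, on 3R at 12047748 to 12048762, held CG8478, Hr78 and Notch again and had a score of 14.9.

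The lowest members lay close to the lowest score in the Cmi list, 6.47. They were on 3R at 27452660 to 27452785 with Notch and a score of 6.47, on 3R at 8807512 to 8808327 with CG8478, larval Hr78 and Notch and a score of 6.48, and on 3L at 19555161 to 19555651 with larval Hr78 and Notch and a score of 6.48. Just outside the upper limit stood 42 regions with Cmi, no Su(H) and exactly 5 regulators. The 3 of these with the highest Cmi scores lay on 3R at 17010457 to 17010887, with CG8478, h, both Hr78 lists and Notch and a score of 24.9, on 2L at 160414 to 162220 with a score of 24.8, and on 2R at 18205205 to 18206429 with a score of 18.7. The last 2 of these each held AbdB, CG8478, both Hr78 lists and Notch.

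Few members lay close to a Su(H) peak. The Su(H) peaks nearest to a member lay 2 bp away on X at 5798633 to 5799213, 43 bp away on 3L at 15228121 to 15228451 and 52 bp away on X at 1281116 to 1281757. On the other side, the smallest direct overlaps of a Cmi and a Su(H) peak were 24, 41 and 44 bp, in regions left out for that reason. Over all members the nearest Su(H) peak lay a median of 19964 bp away (quartiles 5303 and 46087), within 500 bp in 23 and within 1000 bp in 37. For regions of Cmi alone the median was 15593 bp. A Su(H) peak lay within 500 bp of 6.91% of the members and 5.65% of the regions of Cmi alone. Within 1000 bp the shares were 11.1% and 9.63%, and within 5000 bp they were 24.3% and 31.3%.

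Members lay on all main arms, with 49 on 2L, 71 on 2R, 62 on 3L, 78 on 3R, 6 on 4 and 67 on X. The largest gap between their share of an arm and that of all merged regions was on 2R, 21.3% against 19.4%. For most partners the interval of the share on X included the 20.1% of all members, as for AbdB (9 of 29, interval 15.3 to 50.8), Hr78 (24 of 94, 17.1 to 35.6) and CG8478 (9 of 75, 5.64 to 21.6). The exceptions were dm, given above, and prd (2 of 34, 0.720 to 19.7). Taken as separate lists, RF12 (2 of 27, 0.910 to 24.3) and RF13 (0 of 7, 0 to 41.0) each had an interval that included 20.1%. The share of all dm regions on X is not given here. The nearest other region with Cmi lay a median of 5101 bp away, within 500 bp for 105 members (31.5%), so that a part of the members stood beside a further Cmi peak not joined to them. The share within 500 bp was 37.0% for Cmi alone, 36.2% for Cmi with Su(H) in 2 to 4 regulators, and 22.7% for Cmi with 5 or more regulators. For members with h the median distance was 19605 bp, and 10 of 45 had another Cmi region within 500 bp. The median was 23780 bp for 2 members with insv, 19419 bp with Lola, 16184 bp with prd and 15398 bp with dm. With each of the other partners it was shorter.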

How the data were processed

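Peak lists were analysed as deposited. Per the submitters' processing notes, CASAVA 1.7.0, BWA and MACS2 were used with build dm3. Not given in the sources used here are settings, order, thresholds, the input used for each list and whether replicates were pooled before calling. Each deposited list gave, for every peak, a fold enrichment (a ratio), a −log10 p and another deposited value, how many bp the summit lies past the start. These are the authors' own values for a peak, used only to describe and rank peaks within 1 list, except under the common threshold. Read depth is unknown.

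Of 12745 peaks, 12462 on the main arms were merged at 1 bp overlap. The Cmi peak with the highest −log10 p stood for its region. Shares have exact Clopper-Pearson 95% intervals. Where a count of 0 is said to allow a share up to a limit, that limit is 3 counts. It is lower than the upper end of the exact interval, which is 1.41% for 0 of 260. Both cover counting error only. No test was run, because the presence of peaks in every list chose the members. The members, comparison sets and lists were chosen with earlier results of these data known. The rule for named regions took the 10 members with the highest Cmi score, the highest-scoring member of each partner, the 5 highest with 4 regulators, the 3 lowest, and the 3 highest with exactly 5 regulators. Merging was checked on simulated peaks. Neither sequence nor gene models of dm3 were used here, so no genes or sequences are given. Alternatives were another overlap or peak width, stricter thresholds, other limits of the rule, and each list left out in turn. Calculations used Python 3.11.15, numpy 2.4.6, scipy 1.17.1, pandas 2.3.3 and matplotlib 3.10.9.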

Additional observations from a re-analysis of the deposited data

How the results depend on the processing

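No paired analysis was possible because each group has 1 list with no value per replicate, so no replicate could be left out either. Of 68 values recomputed under alternatives, 54 stayed within 1.5 times the main value for counts or inside the 95% interval of the main value for shares and medians, and 14 did not. The number of members was 309 to 362 with each of 14 lists left out in turn, and 303 to 354 with another overlap, a joining distance of 500 bp or 400 bp around the summit. It was 194 with exactly 2 regulators. With the top-scoring 50% of each list it was 187; in these, Notch was present in 44.4%, CG8478 in 32.6%, Hr78 in 21.9%, h in 18.2% and cnc in 1.6%, the median Cmi percentile was 80.6 (bound to be higher, since lower peaks were removed) and the median summit distance was 77 bp. With a common −log10 p of at least 10 it was 132, with Notch in 78.0%, br in 1.52%, and cnc and h each in 0%; the Su(H) and h lists have no peak at that level, so the rule on Su(H) then removed no region, and there were no regions with h and prd RF12 to give a share. All regions with h and prd RF12 held Cmi under the other alternatives, 8 of 8 with the top-scoring 50%. The cause of the other shifts was not tested. The alternatives for h, and for h with prd RF12, were added after the data were seen. Without read depth, an absent peak cannot be told apart from one below the caller's threshold.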
